A study of Homo sapiens with 8 samples.

Results

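Expression in LX-2 cells on a stiff matrix was compared with that on a soft matrix over both culture times at once, in 8 RNA-seq libraries, which are all the libraries of the series. LX-2 is an immortalized line of human hepatic stellate cells, and all libraries came from wild-type cells. The cells had grown on fibronectin-coated polyacrylamide hydrogels of about 2 kPa (soft) or about 40 kPa (stiff) for 2 or 4 days, with 2 libraries in each of the 4 conditions. The stiff side thus held 4 libraries, and so did the soft side, and day entered the model as an additive term, so that each value below is a difference between matrices within a day, averaged over the days. The paper describes the libraries of a condition as independent experiments. The model is 1 cell line on a flat gel.

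Hepatic stellate cells lie beside the sinusoids of the liver and store vitamin A at rest. After injury they turn into contractile, collagen-producing myofibroblasts, and a stiff substrate promotes that state. Mechanical load reaches the nucleus through integrins, actin tension and the co-activators YAP and TAZ, which act with TEAD factors on genes such as CTGF and ANKRD1. Stellate cells are also immune signalling cells: NF-kB drives their chemokines and adhesion molecules, and type I interferon acts through a complex that contains IRF9 on elements called ISRE.

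Totals lay between 19955975 and 27263935 counts per library, with a median of 22598474, and 14570 of 25369 genes passed the filter on low counts. Replicate 2 of the stiff matrix at 4 days stood apart. Levels were taken as log2 CPM (counts scaled to library depth by edgeR's TMM method), relative to each gene's mean over all 8 libraries. On that relative scale, this library fell by 0.27 for each doubling of gene length. Slopes against the same mean, which includes this library, were -0.07 to 0.13 in the other 7 libraries. The median difference of this library from its replicate was 0.47 on the log2 scale, against 0.09 to 0.21 in the other pairs. Calls were therefore also made without it. Of 10 mesenchymal markers, VIM, COL1A1, ACTA2 and PDGFRB were at or above 1 FPKM (fragments scaled to gene length and depth) in every library, and the other 6, with LRAT, DES and DCN among them, were below 1 FPKM in every library. All 6 endothelial markers and 5 of 6 hepatocyte markers were below 1 FPKM throughout. Of 5 cholangiocyte markers, 3 were below 1 FPKM throughout. The other 2, KRT7 (5.47 to 11.1 FPKM) and SOX9 (4.76 to 13.9 FPKM), were above it in every library.

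At a Benjamini-Hochberg adjusted p under 0.05 in edgeR's quasi-likelihood test, 10 genes were called higher and 48 lower in cells on the stiff matrix, which is 0.398% of the genes tested (0.0686% higher and 0.329% lower). Without scaling factors the split was 3 higher and 53 lower. Of the 48 lower genes, 30 belong to the 6 lists of interferon-stimulated genes, interferon signalling, MHC class I, NF-kB, chemokines and cytokines, and complement. Of the 133 tested members of these lists, 0 were called higher. The lists were chosen with earlier results of these data known, so this overlap is a description and was not tested. Of the 58 genes, 32 fell and 3 rose by at least 2-fold. In all 58 the stiff and soft libraries did not overlap within either day, which held for 4.79% of all genes tested in the higher and 6.14% in the lower direction, and in 42 the 4 stiff libraries did not overlap the 4 soft ones whatever the day (0.906% and 1.82% of all genes). The 58 were called from these same libraries, so the lack of overlap describes them and is no separate support. The smallest adjusted p was 0.0173, so that 0 genes passed a cutoff of 0.01, while 461 genes (3.16%) were higher and 721 (4.95%) lower at an unadjusted p under 0.05. When the effect was taken at each day in a fit of all libraries, edgeR called 0 genes at 2 days, and at 4 days 0.0343% of genes higher and 0.213% lower. Of the 58 genes, 36 passed that cutoff at neither day.

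**Figure D1:**
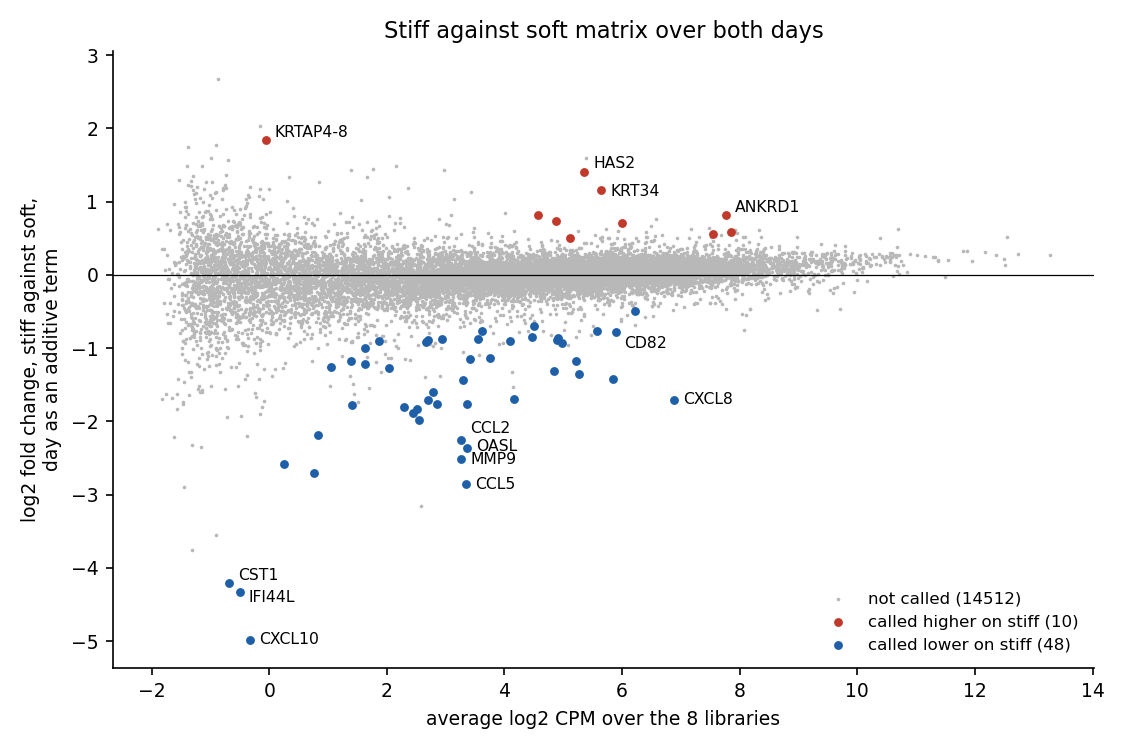
Each point is 1 of 14570 genes. The horizontal axis is the average log2 CPM over the 8 libraries and the vertical axis is the log2 fold change of stiff against soft with day as an additive term. The 48 genes called lower (blue) reach -4.98 and the 10 called higher (red) reach 1.84. Grey points are genes that were not called.

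Chemokines, cytokines and adhesion molecules were the list with the lowest median. Of 25 members tested, 9 were called lower and 0 higher, against 0.329% of all genes called lower, and the median log2 fold change was -1.31, against 0.02 for all genes. CXCL8 (IL8), the main neutrophil chemoattractant, was the most abundant of the 9 by FPKM. The gene spans positions 74606236 to 74609433 of chromosome 4 (GRCh37, hg19). It had 105 and 122 CPM on the soft and 32.8 and 49.8 CPM on the stiff matrix at 2 days, and 261 and 242 against 66.2 and 63.7 CPM at 4 days. Soft libraries of either day thus lay above every stiff library, with a log2 fold change of -1.71 (SE 0.16, edgeR adjusted p = 0.0173).

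CCL5, a chemokine for T cells and monocytes, had 7.60 and 8.89 CPM on the soft and 1.30 and 2.72 CPM on the stiff matrix at 2 days. At 4 days it had 30.7 and 25.0 CPM on the soft and 2.16 and 2.25 CPM on the stiff matrix. The 4-day soft libraries were the highest and all stiff libraries lay below all soft ones, with an effect over both days of -2.86 (SE 0.34, edgeR adjusted p = 0.0229). CCL2, the monocyte chemoattractant, had 8.70 and 10.9 CPM against 1.47 and 3.60 CPM at 2 days and 23.05 and 20.8 CPM against 2.31 and 5.24 CPM at 4 days, a log2 fold change of -2.26 (SE 0.31).

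The neutrophil chemokine CXCL1 (-1.42), the adhesion receptor ICAM1 (-1.31) and the cytokine gene IL6 (-1.18) fell too, as did the colony-stimulating factors CSF2 (-1.70) and CSF3 (-2.58). ICAM1 had 27.1 and 26.2 CPM on the soft against 8.73 and 14.7 CPM on the stiff matrix at 2 days, and 54.7 and 56.4 against 20.04 and 20.9 CPM at 4 days. CXCL10, a chemokine induced by interferon, had 128 counts in the 4 soft libraries together and 3 in the 4 stiff ones, where no library held more than 1. Scaled for depth, this is a ratio of 36.5 (exact 95% interval 12.2 to 179, counting error only). Of the 25 members, 21 had an unadjusted p under 0.05 in the lower direction and 1, IL11, in the higher one. Over all genes tested the shares were 4.95% and 3.16%. IL11 was the 1 member with a value above 0 (0.42, edgeR adjusted p = 0.436), and its stiff libraries lay above the soft ones within each day.

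Interferon-stimulated antiviral genes followed. Of 40 tested, 10 were called lower and 0 higher, the median was -0.85, and 39 had a value below 0, against 45.2% of all genes tested (54.8% had one above 0). OASL, of the oligoadenylate synthetase family that senses double-stranded RNA, had 11.7 and 12.2 CPM on the soft against 3.27 and 4.98 CPM on the stiff matrix at 2 days. It had 23.1 and 21.5 against 2.21 and 2.19 CPM at 4 days, so that all soft libraries lay above all stiff ones (log2 fold change -2.37, SE 0.34, edgeR adjusted p = 0.0343). The family members OAS1 (-2.71) and OAS2 (-1.80), the GTPase gene GBP4 (-1.99), IFI44 (-1.76) and XAF1 (-1.21) fell as well. IFI44L had 110 counts in the soft and 4 in the stiff libraries, a depth-scaled ratio of 23.5 (exact 95% interval 8.94 to 87.9).

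IFIT1, IFIT2 and IFIT3, which encode proteins that bind viral RNA, fell by 0.93, 1.70 and 1.17 on the log2 scale. IFIT1 had 20.2 and 24.5 CPM against 13.7 and 15.3 CPM at 2 days and 62.5 and 61.6 against 25.6 and 27.4 CPM at 4 days. Its stiff libraries of 4 days lay above the soft ones of 2 days, since the gene was higher at 4 days on both matrices. Exons of IFIT2 and IFIT3 overlap LIPA on the opposite strand, and the strand setting of the counting is not stated.

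Upstream of these genes, 4 of the 26 tested genes of interferon signalling and nucleic acid sensing were called lower and 0 higher, with a median of -0.26. IRF9, a DNA-binding transcription factor of the type I interferon response, had 26.65 and 27.3 CPM on the soft against 14.8 and 19.2 CPM on the stiff matrix at 2 days and 30.9 and 28.5 against 15.2 and 13.9 CPM at 4 days (-0.84, SE 0.12). IRF1 fell by 0.89 and the RNA sensors DDX58 (RIGI) and DHX58 by 1.13 and 0.87. The interferon genes on this list, IFNB1 and IFNL1, had 0 counts in every library, where 3 counts would correspond to 0.11 to 0.15 CPM. Of 17 tested genes of MHC class I and antigen processing, ERAP2, a peptidase that trims peptides for presentation, was the 1 called (-0.76), although all 17 had values below 0 (median -0.35).

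**Figure D2:**
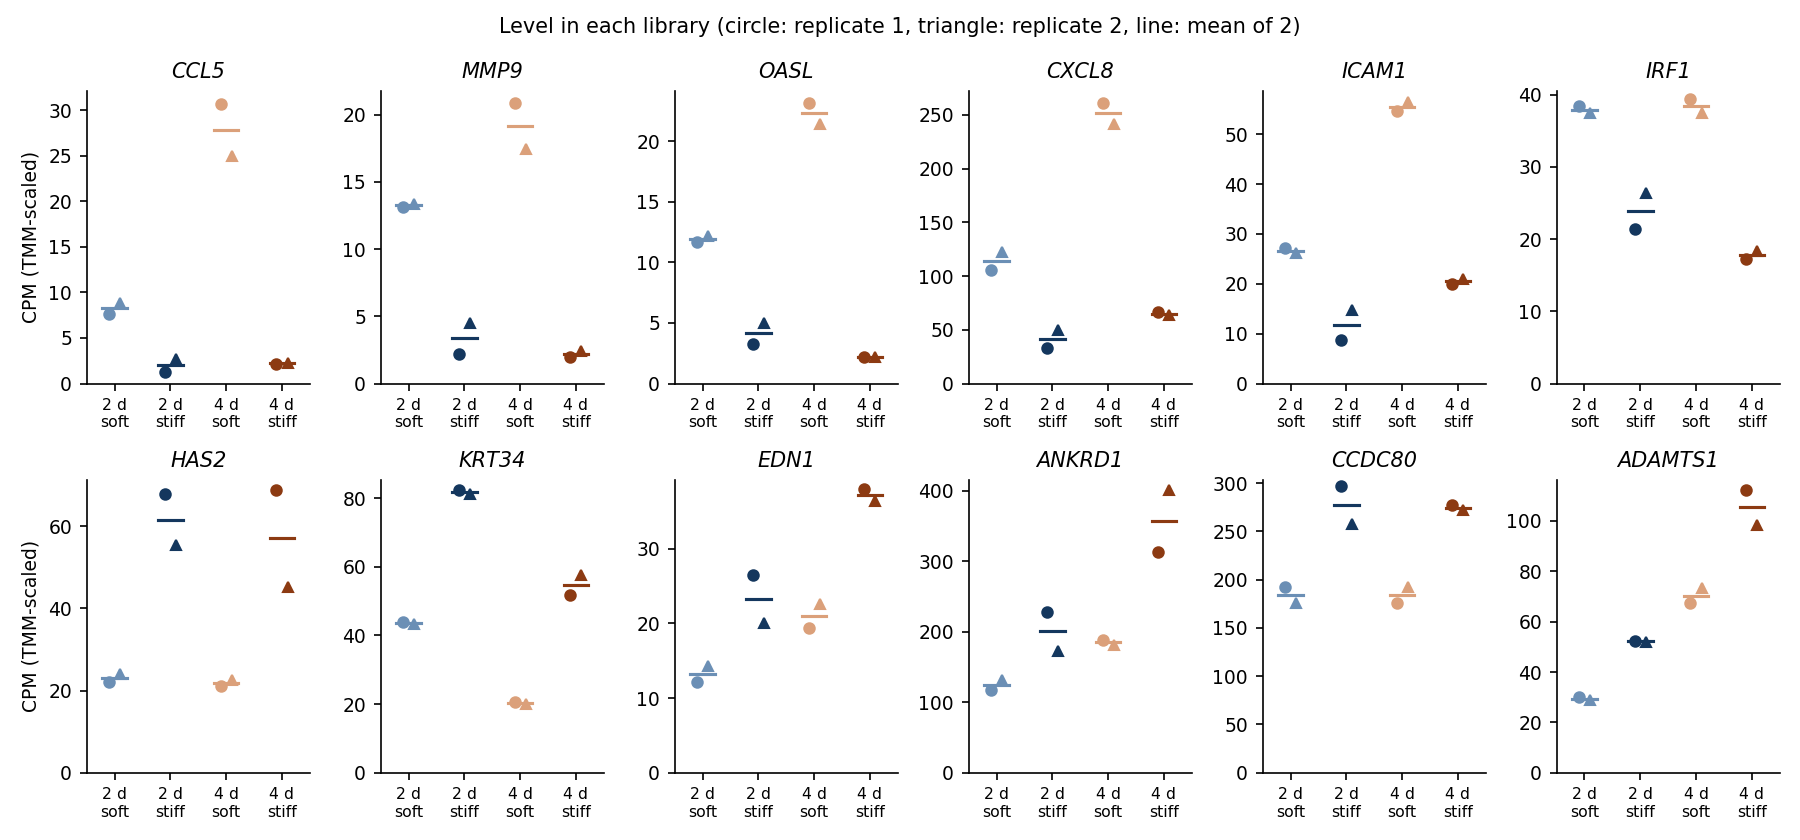
CPM scaled by TMM in each of the 8 libraries for 6 genes called lower (top row) and 6 called higher (bottom row) on the stiff matrix. Circles are replicate 1, triangles replicate 2 and lines the mean of 2, with vertical axes from 0. In each gene the stiff and soft libraries of a day do not overlap, as with CXCL8 at 105 and 122 against 32.8 and 49.8 CPM at 2 days.

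NF-kB signalling was represented by 15 tested subunit and feedback genes, of which 2 were called lower and 0 higher, with a median of -0.24. BIRC3, an NF-kB target that blocks apoptosis, had 35.4 and 42.2 CPM on the soft against 15.5 and 21.5 CPM on the stiff matrix at 2 days and 63.3 and 81.4 against 28.5 and 18.3 CPM at 4 days (-1.35, SE 0.20, edgeR adjusted p = 0.0343). TRAF1, a signalling adaptor of the TNF receptor family, fell by 1.44. The inhibitor NFKBIA had a value of -0.63 with an adjusted p of 0.202, and it was among the 8 members called lower without replicate 2 of the stiff matrix at 4 days.

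Of 10 complement genes tested, 4 were called lower and 0 higher (median -0.50). C3, the central component, had 2.89 and 2.34 CPM on the soft against 0.42 and 0.50 CPM on the stiff matrix at 2 days and 2.24 and 3.34 against 0.59 and 0.92 CPM at 4 days (-2.18, SE 0.26). The proteases of the first component, C1R and C1S, fell by 0.69 and 0.89, and factor B (CFB) fell by 1.14. CD55, which protects cells from complement, went the other way, with a value of 0.34 (edgeR adjusted p = 0.353) and stiff libraries above soft ones within each day. Exons of CFB overlap C2 on the same strand and those of C1R overlap C1RL, so reads of these pairs could have been discarded or shared.

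Among 16 tested matrix metalloproteinases and their inhibitors, the gelatinases MMP9 and MMP2 were called lower and 0 were called higher. MMP9 had 13.1 and 13.4 CPM against 2.23 and 4.48 CPM at 2 days and 20.9 and 17.4 against 1.96 and 2.42 CPM at 4 days, a log2 fold change of -2.52 (SE 0.28, edgeR adjusted p = 0.0207). MMP2 had 13.1 and 10.3 against 4.24 and 5.99 CPM at 2 days and 9.005 and 10.6 against 1.72 and 1.73 CPM at 4 days (-1.76, SE 0.27). The list as a whole was near all genes, with a median of -0.11. Exons of MMP9 overlap SLC12A5-AS1 on the opposite strand.

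All libraries came from 1 cell line, so markers of other cell types were read as levels in LX-2 cultures. In bulk libraries, fewer cells in a given state and less RNA per cell cannot be told apart. Of 7 macrophage markers, C1QA had 0 counts in every library, MARCO had at most 1 and PTPRC at most 64, and the summed level of the list was 48.7 to 56.6 FPKM on the soft and 57.6 to 66.8 FPKM on the stiff matrix, most of it from CD68. CD68 had a log2 fold change of 0.24 (edgeR adjusted p = 0.366), while CD14 had one of -0.55 (adjusted p = 0.661) and CSF1R one of -0.69 (adjusted p = 0.412). The part of such transcripts in the results was not tested.

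Outside the lists, 16 more genes were called lower. They were the protease inhibitor gene CST1, the retinoid-responsive RARRES3 (now PLAAT4, -1.89), APOL3 (-1.83), the endothelial lipase gene LIPG (-1.77), the cysteine protease gene CTSS (-1.60), the Notch target HES1 (-1.27), HNMT, the tight junction gene CLDN1, the transporter gene ABCC3, UBA7, which encodes the enzyme that activates ISG15, the transcription factor gene CEBPD, ZC3H12A, which encodes an RNase that degrades cytokine mRNA, MEGF6, the tetraspanin gene CD82, TINAGL1 and NFE2L3. CST1 had 95 counts in the soft and 4 in the stiff libraries, a depth-scaled ratio of 20.3 (exact 95% interval 7.68 to 76.1). CD82 was among the 5 most abundant of the 48 by FPKM, with 71.2 and 54.5 against 32.6 and 39.6 CPM at 2 days and 91.7 and 81.9 against 46.1 and 56.5 CPM at 4 days (-0.78, SE 0.12).

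Of the 10 genes called higher, HAS2 had the largest rise, leaving aside KRTAP4-8 at its low level. HAS2 encodes a synthase of hyaluronan, a glycosaminoglycan that accumulates in fibrotic liver, and spans positions 122624356 to 122653680 of chromosome 8. It had 22.04 and 24.0 CPM on the soft against 68.0 and 55.3 CPM on the stiff matrix at 2 days and 21.2 and 22.6 against 68.9 and 45.3 CPM at 4 days. The lowest stiff library lay above the highest soft one, with a log2 fold change of 1.40 (SE 0.14, 95% interval 1.08 to 1.72, edgeR adjusted p = 0.0173). Its exons overlap HAS2-AS1 on the opposite strand. It was the 1 gene called among 25 tested matrix glycoproteins and proteoglycans, whose median was -0.15.

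KRT34, a hair-type keratin gene (chromosome 17, 39533921 to 39538558), reached 43.9 and 43.4 CPM on the soft against 82.2 and 81.1 CPM on the stiff matrix at 2 days and 20.5 and 19.97 against 51.7 and 57.5 CPM at 4 days (1.16, SE 0.12, edgeR adjusted p = 0.0173). Replicates differed little, and the level on each matrix was lower at 4 days. It was the 1 gene called of 11 tested keratins, which had a median of -0.12 (-0.31 to 0.01 with 1 library left out). KRTAP4-8, a keratin-associated gene within 500000 bases of it, rose by 1.84 from at most 17 counts in a soft library, and near-identical copies of this gene family make its counts uncertain.

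Of 22 YAP and TAZ targets tested, 2 were called higher and 0 lower, against 0.0686% of all genes called higher. Their median was 0.23, and it ranged from 0.15 (without replicate 1 of the stiff matrix at 4 days) to 0.30 with 1 library left out. ANKRD1, which encodes a muscle ankyrin repeat protein and is a much-used readout of YAP, had 117 and 131 CPM on the soft against 229 and 173 CPM on the stiff matrix at 2 days and 188 and 181 against 313 and 401 CPM at 4 days (0.82, SE 0.13, edgeR adjusted p = 0.0370). CCDC80, a secreted matrix protein gene, had 193 and 176 against 297 and 258 CPM at 2 days and 176 and 192 against 277 and 272 CPM at 4 days (0.58, SE 0.09). CTGF (CCN2) had a value of 0.62 and an edgeR adjusted p of 0.123, and it was among the 7 members called without replicate 2 of the stiff matrix at 4 days.

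The remaining 6 genes called higher belong to no list. EDN1 encodes endothelin-1, a peptide that makes stellate cells contract, and had 12.1 and 14.2 CPM on the soft against 26.5 and 20.02 CPM on the stiff matrix at 2 days and 19.4 and 22.5 against 37.96 and 36.5 CPM at 4 days (0.82, SE 0.12, edgeR adjusted p = 0.0343). ADAMTS1, a secreted protease that cleaves proteoglycans, rose by 0.70 (SE 0.09), with 30.0 and 28.9 against 52.2 and 52.1 CPM at 2 days. PID1, RAB3B, a small GTPase gene of vesicle traffic, and SH3RF1, a scaffold and ubiquitin ligase gene of JNK signalling, had log2 fold changes of 0.74, 0.56 and 0.50.

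With all libraries, collagen and contractile genes were not called. Of 23 tested collagens 0 were called in either direction by edgeR, while 9 had an unadjusted p under 0.05, all lower, and the median was -0.35. Over all genes tested, 3.16% were higher and 4.95% lower at that unadjusted cutoff, which also applies to the contractile genes below. Without replicate 2 of the stiff matrix at 4 days 3 collagens were called lower, COL3A1 among them (-1.12, edgeR adjusted p = 0.00243). COL1A1, the most abundant, had 172 and 149 FPKM on the soft against 142 and 153 FPKM on the stiff matrix at 2 days and 103 and 125 against 113 and 83.9 FPKM at 4 days, so that the matrices overlapped (-0.17, edgeR adjusted p = 0.837). Of 24 contractile and SRF target genes 0 were called, 4 were higher and 1 lower at an unadjusted p under 0.05, and the median was 0.21. Without that library 3 were called higher, among them the actin-binding gene CALD1 (0.50, edgeR adjusted p = 0.00824), and the median was 0.13. The 1 lower with all libraries was ACTA2, the gene of alpha-smooth muscle actin, at -0.28 (edgeR adjusted p = 0.591), with 5.14 and 4.94 FPKM on the soft against 4.32 and 4.37 FPKM on the stiff matrix at 2 days and 9.27 and 10.3 against 6.64 and 8.81 FPKM at 4 days. Exons of ACTA2 overlap those of FAS and ACTA2-AS1 on the opposite strand. LOX, which crosslinks collagen, had a value of 0.52 (adjusted p = 0.14), FN1 0.17 (adjusted p = 0.912), and VCAN 0.41 (adjusted p = 0.628).

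AP-1 factors, which the study followed, gave 0 calls among 17 tested by edgeR, with 4 higher and 1 lower at an unadjusted p under 0.05 and a median of 0.13. JUN had a value of 0.23 (SE 0.09, edgeR adjusted p = 0.493) and FOSL1, the most abundant, 0.14 (adjusted p = 0.755). JUNB had a value of -0.52 (adjusted p = 0.123), ATF3 of -0.22 (adjusted p = 0.8) and FOSL2 of 0.15 (adjusted p = 0.96). Libraries of the stiff matrix lay above those of the soft one within each day for JUN, FOSL1 and FOS, and below them for JUNB.

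**Figure D3:**
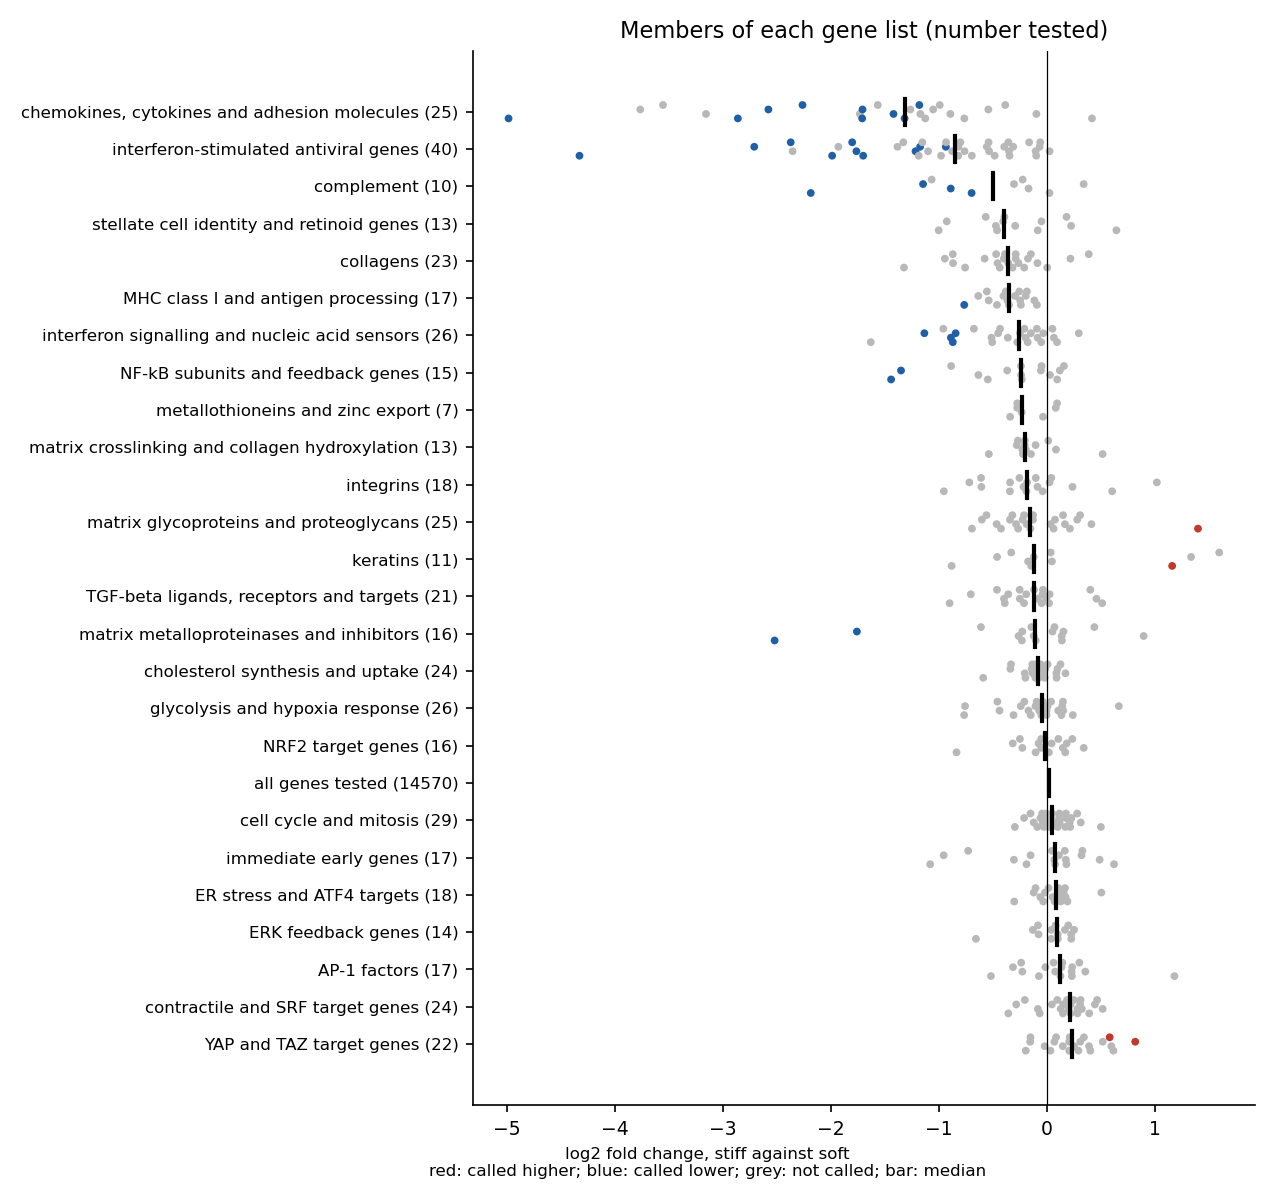
Each point is a tested member of 1 of 25 gene lists, placed by its log2 fold change of stiff against soft over both days. Red points were called higher, blue points lower, and black bars are medians, from -1.31 for chemokines, cytokines and adhesion molecules to 0.23 for YAP and TAZ targets, with 0.02 for all genes tested.

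The effect at 4 days was compared with that at 2 days by an interaction term, and 0 genes were called by edgeR, with 284 (1.95% of those tested) at an unadjusted p under 0.05. The lowest p-values belonged to FOS, OASL, FZD8, IGFBP3 and IFI44. FOS, an AP-1 subunit, had 1.06 and 1.13 FPKM on the soft against 1.28 and 1.20 FPKM on the stiff matrix at 2 days and 1.29 and 1.47 against 5.96 and 5.61 FPKM at 4 days. A value averaged over days (1.18, edgeR adjusted p = 0.293) thus joined a log2 fold change of 0.18 at 2 days with one of 2.06 at 4 days. IGFBP3, which binds insulin-like growth factors, had 0.02 and 1.15, and FZD8, a Wnt receptor gene, 0.20 and -1.06.

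The days share no library, so genes taken from the 2-day libraries alone could be looked up in the 4-day libraries alone. In the 4 libraries of 2 days, 314 genes were called higher and 353 lower (2.2% and 2.47% of those tested). Of the 351 lower ones that were also tested at 4 days, 284 (80.9%) had a value below 0 there and 105 an unadjusted p under 0.05, with a median of -0.39, against 45.2% and a median of 0.03 for all genes tested at both days. Of the 308 higher ones, 242 had a value above 0 at 4 days, against 7477 of the 13645 genes tested at both days. The median of the 308 was 0.17, with 46 higher and 2 lower at an unadjusted edgeR p under 0.05 there. Among the 45 that were lower by at least 2-fold at 2 days, 43 were lower at 4 days (median -1.76), while the 8 that were higher by at least 2-fold split into 4 higher and 4 lower. In the 4-day libraries alone edgeR called 0 genes, with 409 at an unadjusted p under 0.05. Of the genes tested at both days, 1.02% were higher and 1.74% lower at that cutoff.

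**Figure D4:**
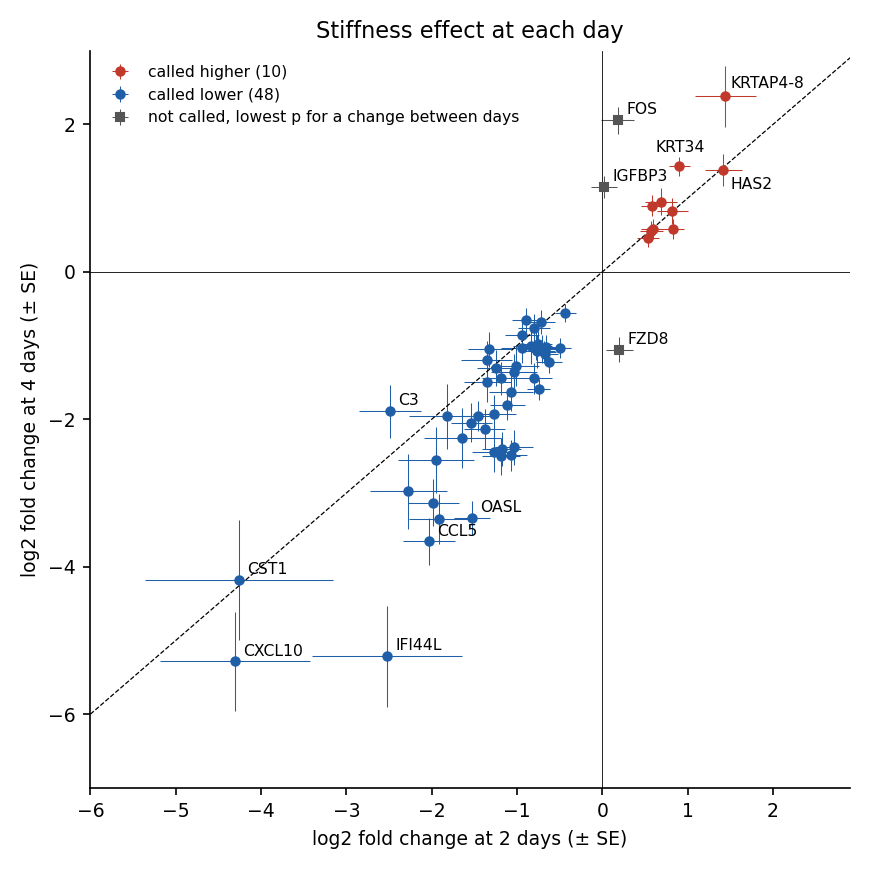
Log2 fold change of stiff against soft at 2 days (horizontal) and at 4 days (vertical) for the 58 called genes and for 3 uncalled genes with the lowest p for a change between days, with standard errors from the fit of all 8 libraries. The dashed line marks equal effects. OASL lies at -1.53 and -3.34, HAS2 at 1.42 and 1.38, and FOS at 0.18 and 2.06.

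The number of calls depended on single libraries. Without replicate 2 of the stiff matrix at 4 days, the library that stood apart, edgeR called 241 genes higher and 303 lower (1.61% and 2.02%), with all 58 genes among them. Without replicate 2 of the stiff matrix at 2 days it called 5 and 44, and without replicate 1 of the stiff matrix at 4 days 2 and 16. Without either soft library of 2 days, either soft library of 4 days or replicate 1 of the stiff matrix at 2 days, it called 0 genes, with 773 to 995 at an unadjusted p under 0.05. All 58 genes kept their direction in each of these fits, and 0 of them were called in all 8.

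Without the library that stood apart, several lists held more calls, while complement (4 lower) and metalloproteinases (2 lower) had the same counts as before. Of the 40 interferon-stimulated genes 26 were called lower, among them MX1, ISG15 and IFI6, of the 25 chemokines, cytokines and adhesion molecules 20, of the 15 NF-kB genes 8 (and TNFAIP3 higher), and of the 17 MHC class I genes 11, B2M among them. YAP and TAZ targets went from 2 to 7 called higher, with CTGF, F3, CRIM1, AMOTL2 and LATS2, and matrix glycoproteins gained VCAN, THBS1 and FBN2 as higher and EFEMP1, LTBP3, LAMA4 and LAMB1 as lower. LOX (0.58, edgeR adjusted p = 0.00236) and CCND1 were called higher in that fit, as was FOS (1.11, adjusted p = 0.0452), and JUNB lower (-0.61). The genes named here beyond the naming rule were chosen after their values were seen.

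**Figure D5:**
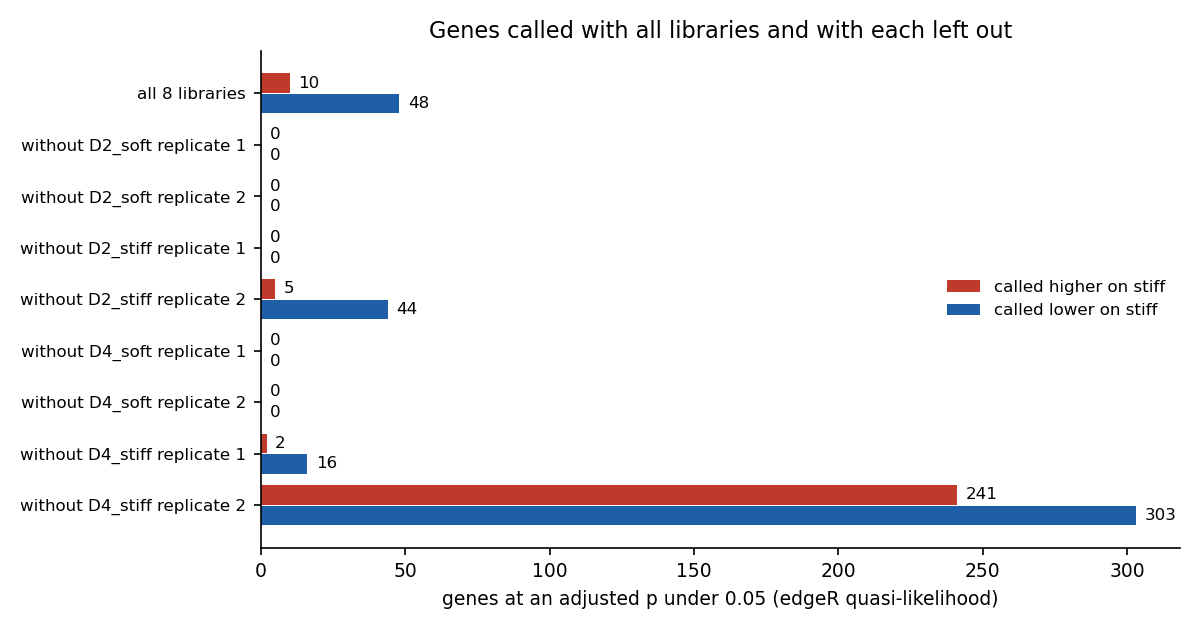
Number of genes called higher (red) and lower (blue) on the stiff matrix at an edgeR adjusted p under 0.05, with all 8 libraries and with each library left out in turn (D2 and D4 stand for the day). The counts are 10 and 48 with all libraries, 241 and 303 without replicate 2 of the stiff matrix at 4 days, and 0 and 0 without any 1 of 5 other libraries.

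Promoters of called genes are shown for the groups that moved together. RefSeq (GRCh38.p14) gave a promoter for 30 of the 48 genes called lower and 7 of the 10 called higher, fewer than 80% of each, so that a comparison of motif shares is void. Motifs were searched on both strands from 250 bases before to 50 after the most upstream start. The AP-1 pattern was TGANTCA with any middle base (in 7.72% of 27305 promoters). The others were the TEAD site (GGAATG, 14.1%), an ISRE core (GAAA, any 2 bases, GAAA, 3.66%) and the NF-kB consensus GGGRNNYYCC (10.8%). In the NF-kB pattern R is A or G, Y is C or T and N is any base. The 250 bases before the start follow, 5′ to 3′ on the strand of the gene, with matches in capitals. CXCL10 holds an ISRE core and a pair of NF-kB sites, IFIT1 a pair of ISRE cores and a TEAD match, and CXCL1 overlapping NF-kB matches. ANKRD1 holds a match to the AP-1 pattern, TGATTCA, and a pair of TEAD sites. These 4 were chosen after the matches were seen. Of the 30 promoters of genes called lower, 7 hold an ISRE core, 12 an NF-kB match, 6 a TEAD match and 2 an AP-1 match. Of the 7 of genes called higher, 1 holds an ISRE core, 1 an NF-kB match, 1 a TEAD match and 2 an AP-1 match. In this window OAS1 has no match to the ISRE pattern, ICAM1, TRAF1, CSF2 and CXCL8 none to the NF-kB pattern and CCDC80 none to the TEAD pattern. The patterns are strict, and a site that departs from them in a base or in spacing is not marked. The lack of a match therefore does not mean that a promoter lacks such a site. CXCL10 also has a TEAD match just after the start. A match is a description of these letters, and binding was not measured.
CXCL10, chr4:76023498-76023747, minus strand: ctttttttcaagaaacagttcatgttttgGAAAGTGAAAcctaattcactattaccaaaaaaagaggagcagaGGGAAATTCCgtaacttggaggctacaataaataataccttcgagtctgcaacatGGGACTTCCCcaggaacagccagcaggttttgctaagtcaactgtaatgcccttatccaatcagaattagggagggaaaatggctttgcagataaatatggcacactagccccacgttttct
IFIT1, chr10:89392373-89392622, plus strand: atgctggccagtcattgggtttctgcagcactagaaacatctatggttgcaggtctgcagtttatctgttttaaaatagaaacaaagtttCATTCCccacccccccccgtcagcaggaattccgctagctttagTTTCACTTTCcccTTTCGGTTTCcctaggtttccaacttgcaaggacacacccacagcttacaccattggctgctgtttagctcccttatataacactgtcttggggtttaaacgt
CXCL1, chr4:73869143-73869392, plus strand: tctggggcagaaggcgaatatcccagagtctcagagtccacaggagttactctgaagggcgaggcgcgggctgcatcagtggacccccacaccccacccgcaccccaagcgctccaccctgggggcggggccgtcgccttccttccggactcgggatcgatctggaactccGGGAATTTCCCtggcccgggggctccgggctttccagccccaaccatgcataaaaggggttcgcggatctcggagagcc
ANKRD1, chr10:90921088-90921337, minus strand: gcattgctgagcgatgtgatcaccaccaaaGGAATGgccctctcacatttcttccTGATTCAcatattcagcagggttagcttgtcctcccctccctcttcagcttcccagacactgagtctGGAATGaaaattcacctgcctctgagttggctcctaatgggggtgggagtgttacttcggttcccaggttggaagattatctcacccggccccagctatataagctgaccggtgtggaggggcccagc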

How the data were processed

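RNA-seq libraries of LX-2 cells were sorted by the labels into soft and stiff matrix at 2 and 4 days. Per the labels, the authors trimmed reads with Trim Galore, aligned them to hg19 with STAR 2.7.1a and counted them per gene with HTSeq, and they deposited raw counts and FPKM of the same genes. The gene annotation and strand setting are not given in the sources used here, and the labels and the paper name different sequencers. The study's tool was DESeq2, and it showed the days separately.

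From the counts, genes were kept by edgeR's filterByExpr over the 4 conditions, scaled by TMM (factors 0.870 to 1.08) and fitted with day and stiffness in edgeR 4.0.16 (R 4.3.3) by the quasi-likelihood test, with 5 residual degrees of freedom (common dispersion 0.0255). Standard errors are the log2 fold change divided by the root of the F statistic, with 2 as the prior count of log2 CPM. The code was tested on simulated data. FPKM were used to print levels and in an alternative on log2(FPKM + 1) for genes at 1 FPKM or more in at least 2 libraries. Depth limits genes of low level, since 1 CPM is about 20 counts, and intervals of count ratios cover counting error only.

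Genes were named by a rule: the 12 largest changes in each direction among called genes at 1 or more in mean log2 CPM, without overlap within a day, the 5 called genes of highest FPKM in each direction, the called members of each list (the largest 4 where more) or its 2 most abundant members, the 5 lowest p-values for a change between days, and 15 genes the study discusses. The members and the 25 lists (539 entries) were chosen with earlier results of these data known. Symbols were matched to GENCODE v44lift37, 13015 as written and 919 through RefSeq synonyms, leaving 636 unmatched. Alternatives used other scaling, filters, DESeq2 1.42.0, limma 3.58.1, blocks, single days and each library left out. Gene-length offsets were added after the data were seen. Some genes of the naming rule are not reported here.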

Additional observations from a re-analysis of the deposited data

Results flagged for a closer look

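A library was singled out when, within the 4 libraries of a matrix, its gap to the nearest other library divided by the whole range exceeded Dixon's critical value for 4 samples. Of 168 groups tested 8 did so. For 4 samples of a single condition chance alone gives about 1 in 20. Each group here joined libraries of 2 and 4 days, so that rate need not hold. On the soft matrix, log2 CPM of CSF3 was 0.74 in replicate 1 of 2 days, below 0.986 to 1.03 in the other libraries, and C1S was 3.19 in replicate 2 of 4 days, above 3.01 to 3.04. FOSL2 on the soft matrix was 6.12 in replicate 1 of 4 days, below 6.78 to 6.91.

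The other 5 flags fell on replicate 2 of the stiff matrix at 4 days. Its log2 CPM was 9.65 for the metallothionein gene MT2A (8.57 to 8.61 in the other stiff libraries), 13 for the glycolytic gene GAPDH (12.4), 11.7 for PKM (11.3 to 11.4) and 5.68 for FOSL2 (7.02 to 7.15). Its FPKM summed to 576000, against 410000 to 419000 in the other stiff libraries. Their part in the results was not tested, and calls without this library are given above.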

How the results depend on the processing

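All 58 called genes that could be fitted kept their direction under every alternative. The counts of calls (10 higher, 48 lower) became 10 and 46 with RLE factors, 3 and 53 without scaling factors, 9 and 47 without a filter beyond 1 count, 9 and 45 with at least 10 counts in every library, 104 and 194 with DESeq2, 223 and 343 with voom and sample quality weights, and 65 and 138 with offsets for gene length. Limma gave 10 and 25 on log2(FPKM + 1), 5 and 24 on log2(FPKM + 0.1), and 2 and 7 without a filter. A model of 4 conditions averaged over days gave 11 and 51, and one without day 0 and 0 (351 at an unadjusted p under 0.05). The 2-day libraries alone gave 314 and 353 and the 4-day libraries alone 0 and 0 (409 unadjusted). With a 2-fold change required, 3 and 32 remained, at an adjusted p under 0.01 there were 0 and 0, and at an unadjusted p under 0.05 there were 461 and 721. Leaving out 1 library gave 0 to 241 higher and 0 to 303 lower genes. The cause of these differences was not tested. The interaction gave 3 genes with DESeq2 in place of 0.

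Same-numbered libraries deviated from their group means with correlations of -0.04 at 2 days and -0.49 at 4 days. With 2 libraries in each group the deviations mirror each other, so each day gives a single value. Such values cannot decide whether the numbers pair the libraries. With the replicate number as a replicate block, 2 genes were higher and 12 lower, and with same-numbered pairs within a day as a replicate block 0 and 0 (748 unadjusted).

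Without scaling factors the median of all genes went from 0.02 to -0.07. List medians were then -0.95 for interferon-stimulated genes, -0.35 for interferon signalling, -0.33 for NF-kB genes, -0.20 for metalloproteinases, 0.12 for contractile genes, 0.045 for AP-1 factors, -0.010 for immediate early genes, -0.17 for cholesterol genes and -0.028 for cell cycle genes, of which immediate early and cell cycle genes changed sign. With 1 library left out, medians ranged from -0.93 to -0.79 for interferon-stimulated genes, -0.36 to -0.19 for NF-kB genes, 0.13 to 0.25 for contractile genes, 0.0207 to 0.16 for AP-1 factors, 0.0256 to 0.15 for immediate early genes, -0.14 to -0.0646 for cholesterol genes, 0.0037 to 0.11 for cell cycle genes, -0.47 to -0.26 for stellate cell genes, -0.31 to 0.01 for keratins, -0.19 to -0.0135 for matrix glycoproteins, -0.15 to -0.0581 for metalloproteinases, -0.27 to -0.0576 for integrins, -0.16 to -0.0378 for TGF-beta genes, -0.50 to -0.21 for MHC class I, -0.47 to -0.0786 for metallothioneins, -0.11 to -0.0292 for glycolysis, -0.0113 to 0.12 for ER stress, 0.052 to 0.12 for ERK feedback and -0.0409 to 0.0452 for NRF2 targets. Several lists had the end of their range without replicate 2 of the stiff matrix at 4 days. The median was then nearest 0 for matrix glycoproteins, integrins, TGF-beta genes, contractile genes and immediate early genes. It was farthest from 0 for keratins, MHC class I, metallothioneins, glycolysis genes, NF-kB genes, YAP and TAZ targets, cholesterol genes and cell cycle genes. That of ER stress genes was below 0. Single genes that changed sign were FOSL2 (-0.19) and FN1 (-0.0601) without replicate 1 of the stiff matrix at 4 days and FN1 (-0.034) with the 2-day libraries alone, and none of these was called. With 1 library left out, FOSL2 ranged from -0.19 to 0.38 and FN1 from -0.0601 to 0.28.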

Other observations

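Of the lists not described above, 0 members were called by edgeR in any with all libraries. Cell cycle and mitosis genes (29 tested) had a median of 0.05, with 3 higher and 1 lower at an unadjusted p under 0.05, and CCND1, which encodes cyclin D1, lay just outside the cutoff (log2 fold change 0.50, adjusted p = 0.0595). Glycolysis and hypoxia genes (26 tested) had a median of -0.05, with 1 higher and 5 lower at that unadjusted cutoff. TGF-beta ligands, receptors and targets (21 tested) had a median of -0.12, with 2 higher and 7 lower. Of these, TGFBI had a value of -0.25 (edgeR adjusted p = 0.516).

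Immediate early genes (17 tested) had a median of 0.08, with 5 higher and 1 lower at an unadjusted p under 0.05. Stellate cell identity and retinoid genes (13 tested) had a median of -0.39, with 0 higher and 5 lower. Integrins (18 tested) had a median of -0.18, with 1 higher and 4 lower, and genes of matrix crosslinking (13 tested) had one of -0.20, with 1 higher and 1 lower. The medians were -0.08 for cholesterol genes (24 tested, 0 higher and 3 lower), -0.01 for NRF2 targets (16 tested, 0 and 2), 0.09 for ER stress genes (18 tested, 0 and 1), 0.09 for ERK feedback genes (14 tested, 0 and 1) and -0.23 for metallothioneins and zinc export (7 tested, 0 and 0). Without replicate 2 of the stiff matrix at 4 days, edgeR called 1 higher and 5 lower of the TGF-beta genes, 1 and 5 of the glycolysis genes, 1 and 3 of the integrins, 3 and 0 of the cell cycle genes, 2 and 0 of the immediate early genes, 2 and 0 of the ERK feedback genes, 0 and 2 of the stellate cell genes, 0 and 2 of the cholesterol genes, 1 and 1 of the crosslinking genes, 1 and 1 of the NRF2 targets, 1 and 0 of the ER stress genes and 0 and 1 of the metallothioneins. Over all genes tested in that fit, 241 were called higher and 303 lower (1.61% and 2.02%). With all libraries, 461 genes were higher and 721 lower at an unadjusted edgeR p under 0.05.

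Of the 58 called genes, 15 lay within 500000 bases of another on GRCh37. The groups were IFI44 with IFI44L, IFIT1 with IFIT2 and IFIT3, OAS1 with OAS2, C1R with C1S, CXCL8 with CXCL1, CSF2 with IRF1, and KRT34 with KRTAP4-8. Just inside the cutoff were SH3RF1 (adjusted p = 0.0485) and NFE2L3 (0.0499), and just outside it BTN3A3 (0.0529) and CXCL2 (0.0541).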
